A study of Mus musculus with 12 samples.

Results

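The response of GM-DC to lipopolysaccharide (LPS) was taken from 6 of the 12 arrays of the series. GM-DC are the dendritic cells, and GM-MF the macrophages, that grow together when mouse bone marrow is cultured with GM-CSF, which drives growth of myeloid cells. The arrays were chosen by their titles: 3 came from GM-DC left unstimulated and 3 from GM-DC given LPS. The other 6 arrays, 3 of unstimulated and 3 of LPS-stimulated GM-MF, entered the estimate of the spread and a closing comparison. Marrow came from the tibia and femur of C57B/6 mice and was kept for 6 days in 20 ng/ml recombinant GM-CSF, and the LPS groups then received 10 ng/ml LPS for 4 hours. All 4 groups share the GM-CSF culture, the labels name no genetic change in any of them, and they give neither the ages of the mice nor the number of mice behind an array. RNA was read on Affymetrix Mouse Gene 1.0 arrays, 1 array per sample, and 19938 genes were measured.

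LPS, a component of the outer membrane of Gram-negative bacteria, is sensed by TLR4 together with MD-2 and CD14. TLR4 signals through the adaptors MyD88 and TRIF: the former leads mainly to NF-kB and MAP kinases and to inflammatory cytokines, and the latter through TBK1 and IRF3 to type I interferon. Secreted interferon then acts through its receptor and the factor ISGF3, which contains STAT2 and IRF9, on a further set of antiviral genes. In dendritic cells the same stimulus also drives maturation, in which costimulatory ligands appear on the surface and the cells migrate towards lymph nodes.

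After 4 hours of LPS the leading change in GM-DC was a rise of interferon-response genes, together with chemokines, inflammatory cytokines and ligands of T cell costimulation. Of 19938 genes, 1042 were called higher, a background of 5.23%, and 896 lower, a background of 4.49%, so that 9.72% were called in either direction. Counts of gene list members given below are to be read beside these shares, and no set test was run. Calls rest on a limma fit of the 4 groups, with p-values adjusted over all genes (Benjamini-Hochberg) and a threshold of 0.05. Large changes were mostly upward: 329 called genes rose and 86 fell at least 2-fold, 96 rose and 2 fell at least 4-fold, and 12 rose and none fell at least 16-fold. Before adjustment, 3884 genes had a p under 0.05. The 3 values per group did not overlap for 328 of the 329 genes that rose at least 2-fold and for 85 of the 86 that fell. Over all 19938 genes, they did not overlap for 2218 with higher and 2618 with lower LPS values. Genes picked for a large called difference rarely overlap, so the former counts are no separate support. Of those 329 genes, 65 had an unstimulated mean below 4.48, the median of all values in the table, where a fold is a ratio of weak signals. The number of lower genes depended on single arrays: it was 521 without the first unstimulated array, 551 without the second and 592 without the first LPS array. The count at least 4-fold lower was 6 without the third unstimulated array, 4 without the first or the second LPS array and 3 without the third LPS array.

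Arrays of one group correlated at 0.993 to 0.996 (unstimulated) and 0.993 to 0.995 (LPS) over all genes, and arrays of different groups at 0.981 to 0.988. The median SD of a gene was 0.12 on the log2 scale without and 0.14 with LPS. The third array of each group stood apart from the other two of that group. In the third unstimulated array several LPS-responsive genes were higher, Tnf among them. A list of 27 interferon-stimulated antiviral genes instead had its lowest unstimulated mean there, 5.52 against 5.66 and 5.84. In the third LPS array many induced genes were the lowest of the 3. The count of genes that rose at least 2-fold was 417 without the third LPS array and 344 without the third unstimulated one.

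**Figure D1:**
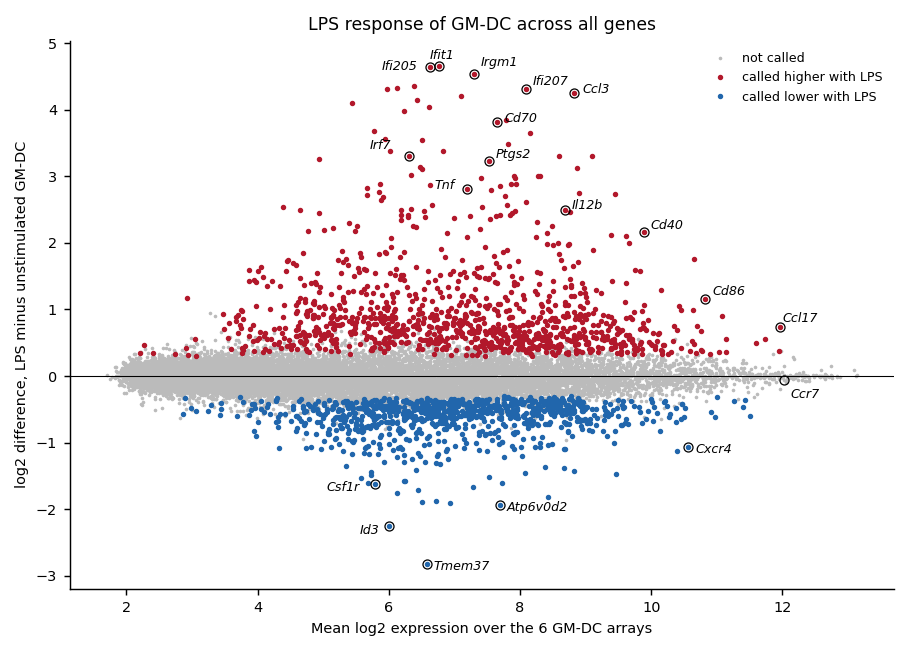
Each point is 1 of 19938 genes, with its mean log2 expression over the 6 GM-DC arrays on the x axis and the log2 difference, LPS minus unstimulated, on the y axis; red and blue points are the 1042 genes called higher and the 896 called lower. The upward side reaches 4.66 (Ifit1) and the downward side -2.82 (Tmem37), while Ccr7 lies at -0.05.

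Among the components that sense LPS and pass the signal on, 7 of 19 measured genes rose, 1 fell and 11 were not called, with a median log2 difference of 0.13 against -0.01 over all genes. Tlr4 itself, the signalling receptor, read 6.65, 6.65 and 5.79 unstimulated and 5.88, 5.86 and 5.04 with LPS. Each LPS array lay below the unstimulated array of its number, but the groups overlapped, and the third array of each was its lowest. The difference was -0.77 (SE 0.26, adjusted p = 0.092), which was not called, and with the replicate number as a block the adjusted p was 4.8e-04. It was also called without GM-DC unstimulated array 3 (adjusted p = 0.015). Cd14, the co-receptor that hands LPS to TLR4, rose from 6.83, 7.18 and 6.94 to 7.82, 7.91 and 7.50, with no overlap and a log2 difference of 0.76 (SE 0.14, adjusted p = 0.00185). Myd88, the adaptor of the inflammatory branch, rose by 1.18 (SE 0.13), whereas Ticam1, which encodes TRIF, fell from 8.11, 8.02 and 8.10 to 7.65, 7.51 and 7.49 (log2 difference -0.53, SE 0.11, adjusted p = 0.00593). The groups of Ticam1 did not overlap.

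Of the kinases further down, Ikbke, a relative of TBK1 that activates interferon regulatory factors, rose 2.93-fold, from 5.22, 5.40 and 5.12 to 6.92, 7.01 and 6.46 (log2 difference 1.55, SE 0.14, adjusted p = 2.8e-06). Map3k8, the kinase TPL2 that drives ERK signalling, rose 2.92-fold from 6.40, 6.55 and 6.63 to 8.22, 8.24 and 7.75. Every LPS array exceeded every unstimulated array for both kinases. The number of risen genes in this list was 4 without the second unstimulated, the first LPS or the second LPS array. Of 10 other genes of Toll-like receptor sensing, 3 rose and 1 fell. Tlr2, the receptor of bacterial lipopeptides, rose 2.51-fold from 6.23, 6.46 and 6.43 to 7.77, 8.01 and 7.33. Tlr3, a sensor of double-stranded RNA, rose by 0.98 (SE 0.23) from values below the table median, and Tlr12, a sensor of profilin, fell by 0.74 (SE 0.22). Both of these calls were lost when the fit held only the 6 GM-DC arrays. With arrays left out one at a time and numbered by replicate, that of Tlr3 was lost without GM-DC unstimulated array 3 or GM-DC LPS array 2 (adjusted p 0.0591 to 0.0612), and that of Tlr12 without GM-DC unstimulated array 1, 2 or 3 or GM-DC LPS array 2 or GM-MF unstimulated array 1, 2 or 3 or GM-MF LPS array 1 (adjusted p 0.0547 to 0.174).

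Of 13 NF-kB subunits, inhibitors and kinases, 6 rose and 1 fell. The risen genes encode inhibitors or other IkB-family proteins, which bind NF-kB and are themselves NF-kB targets. Nfkbiz, a nuclear IkB needed for Il6 and other secondary genes, read 6.10, 6.03 and 6.96 unstimulated and 8.66, 8.90 and 8.61 with LPS. All LPS values were higher, although the third unstimulated array stood well above the other two, and the rise was 5.13-fold (log2 difference 2.36, SE 0.20, adjusted p = 1.4e-06). Nfkbia, the main cytoplasmic inhibitor IkB-alpha, rose from 10.65, 10.54 and 10.71 to 11.58, 11.65 and 11.36 (log2 difference 0.90, SE 0.11, adjusted p = 6.0e-05). The subunit genes Rel, Rela, Relb and Nfkb2 had differences from -0.20 to 0.14 and were not called. Map3k14, the kinase NIK of the alternative NF-kB pathway, fell 2.05-fold from 8.76, 8.95 and 9.11 to 7.66, 7.67 and 8.37. The count of risen members was 3 without the first or second unstimulated or the second LPS array.

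Of 21 feedback inhibitors, 5 rose and 1 fell. Socs3, an inhibitor of cytokine receptor signalling, rose 2.08-fold, from 5.61, 5.29 and 5.42 to 6.59, 6.64 and 6.25. Zc3h12a, the RNase Regnase-1 that degrades cytokine messages, rose by 0.995 (SE 0.15), and Tnfaip3, the ubiquitin-editing enzyme A20, by 0.69 (SE 0.15). Socs1, the close relative of Socs3, read 5.58, 5.54 and 5.68 before and 5.77, 5.90 and 6.10 after LPS; its groups did not overlap but it was not called (adjusted p = 0.0945). Atf3, a repressor that limits TLR responses, fell 2.01-fold, from 10.15, 10.06 and 9.62 to 8.88, 9.23 and 8.67 (log2 difference -1.01, SE 0.16, adjusted p = 6.8e-04). Of 22 immediate early factors, 4 rose: Egr1, a zinc finger factor, rose 5.35-fold from 4.87, 4.997 and 5.39 to 7.31, 7.60 and 7.60, and Myc, Mafk and Maff by 0.87, 0.83 and 0.41. Maff was not called without GM-DC unstimulated array 1 or 2 or GM-DC LPS array 1, 2 or 3 or GM-MF unstimulated array 3 (adjusted p 0.0515 to 0.192). The rest of this list, which includes Fos, Jun and the Nr4a receptors, was not called, so that 18.2% were called against the background of 9.72%. Without the third unstimulated array, 7 of the 22 were called higher.

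Of 14 IRF and STAT genes, 6 rose and none fell, with factors that carry the interferon signal among the risen ones. Irf7, the regulator that amplifies type I interferon, read 4.42, 4.89 and 4.65 unstimulated and 7.58, 8.37 and 7.94 with LPS. The groups were far apart, with a 9.92-fold rise (log2 difference 3.31, SE 0.16, adjusted p = 6.6e-09). Stat2 and Irf9, subunits of ISGF3, rose 3.72-fold and 1.92-fold: Stat2 went from 8.16, 8.01 and 8.32 to 9.96, 10.28 and 9.94 and Irf9 from 6.89 ± 0.11 to 7.83 ± 0.01 (SD, n = 3). Irf1 rose by 0.83 (SE 0.14) and Stat5a, which mediates GM-CSF signals, by 1.05 (SE 0.16). Irf8 and Stat4, both tied to dendritic cell function and IL-12, differed by 0.01 and -0.02 and their groups overlapped.

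Antiviral genes known to be stimulated by interferon formed the most uniform list: 26 of 27 rose, 23 of them at least 2-fold, with a median log2 difference of 3.01. The mean level of the 27 genes was 5.52 to 5.84 on the unstimulated arrays and 8.40 to 8.88 on the LPS arrays. Bst2, which encodes tetherin, was the one member not called (difference 0.19, SE 0.12). Ifit1, which binds foreign RNA lacking the host cap, had the largest difference of all genes: it read 4.40, 4.69 and 4.23 unstimulated and 9.004, 9.49 and 8.81 with LPS. The groups were separated by several log2 units, a 25.3-fold rise (log2 difference 4.66, SE 0.15, adjusted p = 1.4e-10). Ifit2, of the same family, rose from 3.79, 4.34 and 3.74 to 8.13, 8.68 and 8.05, or 20.1-fold. Ifi205 and Ifi207, 2 members of the p200 family of nucleic acid sensors and regulators, rose 25-fold and 19.9-fold: the former from 4.32, 4.36 and 4.26 to 8.90, 9.30 and 8.67, the latter from 5.96, 6.25 and 5.60 to 10.11, 10.47 and 10.17. The unstimulated means of Ifit1, Ifit2 and Ifi205 (4.44, 3.96 and 4.31) lay below the table median of 4.48, so the sizes of their folds rest on weak starting signals.

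Irgm1, a GTPase that regulates immunity to intracellular pathogens, rose from 5.17, 5.55 and 4.37 to 9.42, 9.95 and 9.33, a 23.3-fold change. The third unstimulated value was the lowest and all LPS values were far higher. Of the Schlafen genes, a family tied to growth control and viral restriction, Slfn1 rose 20.5-fold from 4.48, 4.20 and 3.92 to 8.57, 9.28 and 7.82, and Slfn8, Slfn5 and Slfn9 rose 16.4-fold, 14.4-fold and 12.8-fold. The third LPS array was the lowest of its group for each of these 4. Samd9l, Xaf1, Oasl2, Rtp4 and Trim30d rose 19.8-, 18.5-, 17.6-, 17.2- and 12.5-fold. The cytoplasmic RNA sensor RIG-I, encoded by Ddx58, rose 10.5-fold, from 4.32, 4.58 and 4.09 to 7.67, 8.18 and 7.31. Slfn1, Slfn9, Samd9l, Oasl2, Rtp4 and Ddx58 also had unstimulated means below the table median, from 3.38 (Rtp4) to 4.36 (Oasl2). Cross-hybridisation between close members of the p200 or Schlafen families was not tested, so values of single members are uncertain.

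Of 8 interferon-inducible GTPases, 6 rose, with a median difference of 1.34. Gbp7 rose 4.55-fold from 3.38, 4.51 and 3.88 to 6.04, 6.76 and 5.53, and Gbp5, which promotes inflammasome assembly, 3.96-fold from 7.54, 7.37 and 7.38 to 9.35, 9.65 and 9.24. Gbp4 rose 3.44-fold from a spread-out start of 5.89, 5.91 and 4.02. The receptors and kinases that receive interferon went the other way or were not called: of 7, 3 fell and 4 were not called. Ifnar1, a chain of the type I interferon receptor, fell from 8.32, 8.07 and 8.10 to 7.63, 7.80 and 7.83 (log2 difference -0.41, SE 0.10, adjusted p = 0.0186), and Ifngr1 and Tyk2 fell by 0.54 and 0.36. The groups of Ifnar1 did not overlap, but its call and that of Tyk2 were lost when only the 6 GM-DC arrays were fitted. Ifnar1 was not called either without GM-DC unstimulated array 1 or GM-DC LPS array 1 (adjusted p 0.093 to 0.109), nor Tyk2 without GM-DC unstimulated array 1 or 3 or GM-DC LPS array 1, 2 or 3 or GM-MF unstimulated array 1 or 3 or GM-MF LPS array 1, 2 or 3 (adjusted p 0.0545 to 0.19).

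To show the promoters beside these changes, the 250 bases before the transcription start were read from RefSeq (build GRCm38.p6) for genes whose windows held a match to one of 2 short motifs; the genes were picked after the matches were seen. The ISRE-like motif was GAAANNGAA, the core of elements bound by ISGF3 and IRFs, and the NF-kB-like motif GGGNNTTTC, both searched on either strand. The letters of the 2 motifs may overlap in a sequence. Capitals mark the matches and every sequence runs 5′ to 3′ on the gene's strand and ends at the base before the start. Ifit1 (build GRCm38.p6, chr19:34640639-34640888, plus strand) held 3 ISRE-like matches, 109, 103 and 84 bases before the start, the first 2 of them overlapping.
Ifit1: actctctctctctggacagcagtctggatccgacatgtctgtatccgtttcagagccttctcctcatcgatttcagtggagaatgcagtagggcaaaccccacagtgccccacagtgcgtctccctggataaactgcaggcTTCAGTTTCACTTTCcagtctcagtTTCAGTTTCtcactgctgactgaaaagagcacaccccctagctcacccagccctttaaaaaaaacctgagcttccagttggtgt
Irgm1 (chr11:48871421-48871670, minus strand) held 2, 30 and 24 bases before the start.
Irgm1: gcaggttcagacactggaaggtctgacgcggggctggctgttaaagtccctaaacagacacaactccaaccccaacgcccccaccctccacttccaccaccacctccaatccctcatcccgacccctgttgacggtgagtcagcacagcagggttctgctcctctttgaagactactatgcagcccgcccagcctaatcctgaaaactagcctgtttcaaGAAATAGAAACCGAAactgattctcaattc
Ifi207 (chr1:173741810-173742059, minus strand) and Slfn5 (chr11:82951852-82952101, plus strand) held 1 and 2 ISRE-like matches.
Ifi207: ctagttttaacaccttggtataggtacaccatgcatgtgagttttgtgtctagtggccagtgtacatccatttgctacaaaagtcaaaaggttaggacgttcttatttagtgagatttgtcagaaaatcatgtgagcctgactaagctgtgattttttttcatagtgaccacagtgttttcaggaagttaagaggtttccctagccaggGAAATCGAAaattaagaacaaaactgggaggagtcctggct
Slfn5: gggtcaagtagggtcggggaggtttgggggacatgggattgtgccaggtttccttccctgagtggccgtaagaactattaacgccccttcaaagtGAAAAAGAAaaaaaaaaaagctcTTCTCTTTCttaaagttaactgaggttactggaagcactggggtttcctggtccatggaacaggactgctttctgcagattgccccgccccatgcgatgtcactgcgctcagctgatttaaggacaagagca
Cxcl10 (chr5:92348890-92349139, minus strand), a chemokine gene, held 1 ISRE-like match 213 bases before the start.
Cxcl10: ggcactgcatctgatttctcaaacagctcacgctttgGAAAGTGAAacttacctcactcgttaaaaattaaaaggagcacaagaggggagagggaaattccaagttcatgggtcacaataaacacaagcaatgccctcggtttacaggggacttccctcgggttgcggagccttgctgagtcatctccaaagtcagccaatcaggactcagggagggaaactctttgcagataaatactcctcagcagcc
Il6 (chr5:30012864-30013113, plus strand) and Nfkbia (chr12:55492648-55492897, minus strand) are shown for the NF-kB-like motif, with 1 match 44 bases and 2 matches 113 and 28 bases before the start; Nfkbia also held an ISRE-like match 53 bases before it.
Il6: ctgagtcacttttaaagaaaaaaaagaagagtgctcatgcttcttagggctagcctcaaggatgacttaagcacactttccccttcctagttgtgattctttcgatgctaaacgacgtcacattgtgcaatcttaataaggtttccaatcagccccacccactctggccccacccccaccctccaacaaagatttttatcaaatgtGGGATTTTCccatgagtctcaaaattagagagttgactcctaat
Nfkbia: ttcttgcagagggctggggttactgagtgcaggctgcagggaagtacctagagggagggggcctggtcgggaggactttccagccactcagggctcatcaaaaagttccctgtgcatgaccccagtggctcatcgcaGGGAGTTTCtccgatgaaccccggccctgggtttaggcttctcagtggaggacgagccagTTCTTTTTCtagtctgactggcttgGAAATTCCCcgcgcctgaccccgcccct

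Over the 15614 measured genes with a window, 7.99% held the ISRE-like motif in these 250 bases. The share was 12.8% of genes called higher, 22.5% of those that rose at least 2-fold, 36.8% (28 of 76) of those that rose at least 4-fold and 5.74% of genes called lower. Of the antiviral list, 9 of the 19 genes with a window held it (47.4%). The NF-kB-like motif was in 4.16% of all measured genes, in 5.68% of genes called higher, 5.81% of those up at least 2-fold and 5.26% of those up at least 4-fold. It was in 3.69% of genes called lower and in 9.59% (7 of 73) of those that fell at least 2-fold. In the chemokine list it was in 6 of the 15 genes with a window (40%), and in the cytokine list in 4 of 24 (16.7%). All these shares count genes, and a gene with several windows counted as holding a motif if any of them did. These shares are descriptions: a match of letters is not a bound site, and a window without one says nothing about the factor.

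Of 30 measured cytokine genes, 18 rose, 12 of them at least 2-fold, and none fell, with a median difference of 0.91. At an unadjusted p under 0.05, 20 were higher and 1 lower. Tnf, the early inflammatory cytokine, read 5.30, 5.35 and 6.71 unstimulated and 8.64, 8.65 and 8.49 with LPS. The third unstimulated array was more than 1 log2 unit above the other two and still below all LPS arrays; the rise was 6.99-fold (log2 difference 2.81, SE 0.27, adjusted p = 5.7e-06). Il23a, the specific chain of IL-23, rose 6.47-fold from 4.89, 4.13 and 4.65 to 7.24, 7.40 and 7.12, and Il12b, the chain shared by IL-12 and IL-23, rose 5.63-fold from 7.27, 7.15 and 7.88 to 9.84, 10.10 and 9.84. Il12a, the chain specific to IL-12, stayed below the table median on every GM-DC array, with 3.44, 3.48 and 3.76 before and 3.55, 4.02 and 4.22 after LPS. Its groups overlapped and it was not called (difference 0.37, SE 0.21, adjusted p = 0.389).

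Il6 rose 3.96-fold from 7.57, 7.48 and 8.20 to 9.51, 9.67 and 10.02, and Il1b 4.21-fold from 4.82, 4.92 and 5.26 to 6.62, 7.20 and 7.40; within both groups the third array was the highest. Tnfsf15, the ligand TL1A that costimulates T cells, rose 5.91-fold from 6.59, 6.27 and 6.69 to 9.19, 9.34 and 8.72. Il10, an anti-inflammatory cytokine, rose from 3.39, 3.46 and 3.17 to 4.45, 4.91 and 5.12 (log2 difference 1.49, SE 0.21, adjusted p = 2.4e-04). Ifnb1, the type I interferon gene, read 2.91, 2.90 and 3.23 unstimulated and 3.93, 3.99 and 3.91 with LPS. Its groups did not overlap and it was called, with a difference of 0.93 (SE 0.22, adjusted p = 0.0149), but all 6 values lay below the table median. It was not called without GM-DC unstimulated array 1 or 2 or GM-DC LPS array 2 (adjusted p 0.057 to 0.0607). Il27, a member of the IL-12 family, rose by 0.88 (SE 0.18). Further risen members, picked after their values were seen, were Il1a (2.23), Csf1 (1.59), Inhba (1.52), Il15 (1.43), which supports NK and memory T cells, and Ebi3 (1.40).

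Of 23 chemokines, 11 rose and 1 fell. Ccl3, a chemokine that draws monocytes and T cells, rose 19-fold: it read 6.52, 6.91 and 6.69 unstimulated and 11.04, 11.16 and 10.65 with LPS, with no overlap (log2 difference 4.25, SE 0.14, adjusted p = 1.4e-10). Ccl2, the main monocyte chemokine, rose 11.7-fold from 4.61, 4.73 and 4.87 to 8.13, 8.52 and 8.19. Cxcl10, an interferon-inducible ligand of CXCR3, rose 8.03-fold from 5.94, 6.35 and 6.92 to 9.01, 9.46 and 9.77. The neutrophil chemokines Cxcl1 and Cxcl2 rose by 2.97 (SE 0.25) and 3.004 (SE 0.27), and Ccl4 by 2.54 (SE 0.23); these 3 were named after their values were seen. Ccl17, a CCR4 ligand made by dendritic cells, rose by 0.74 (SE 0.17) from 11.60, 11.59 and 11.58. Ccl5 and Ccl22 started at 12.67 and 12.03 and differed by 0.15 and 0.28, which were not called although the groups did not overlap. Cxcl16 fell by 0.32 (SE 0.09, adjusted p = 0.0291), a call lost when only the 6 GM-DC arrays were fitted and without GM-DC unstimulated array 1, 2 or 3 or GM-DC LPS array 1 or 2 (adjusted p 0.0767 to 0.104).

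**Figure D2:**
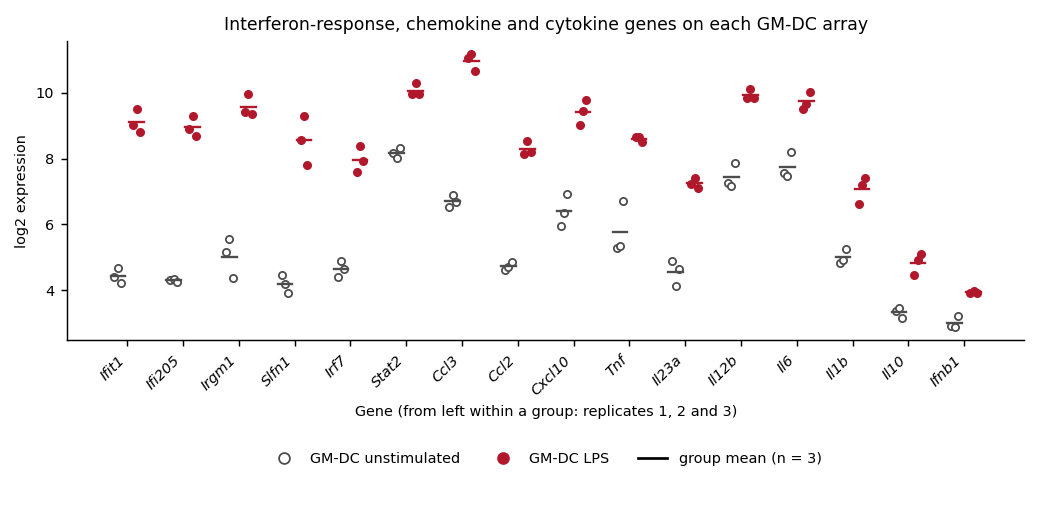
Log2 expression (y axis) of 16 genes on each of the 6 GM-DC arrays; open circles are unstimulated and red circles LPS arrays, in the order of replicates 1, 2 and 3, and lines are group means. Ifit1 lies at 4.40, 4.69 and 4.23 without and 9.004, 9.49 and 8.81 with LPS, whereas all 6 values of Ifnb1 lie between 2.90 and 3.99.

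Ligands of T cell costimulation rose while genes of the mature, migrating state mostly did not. Of 17 costimulatory and checkpoint ligands, 9 rose, 6 of them at least 2-fold, and 1 fell. Cd70, the ligand of CD27 on T cells, rose 14-fold from 5.25, 5.77 and 6.20 to 9.58, 9.85 and 9.22 (log2 difference 3.81, SE 0.27, adjusted p = 2.3e-07). Tnfsf9, which encodes 4-1BB ligand, rose 7.85-fold from 6.24, 6.13 and 6.92 to 9.50, 9.56 and 9.15. The groups of both genes were well apart.

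Cd40, the receptor through which helper T cells license dendritic cells, rose 4.46-fold from 8.80, 8.55 and 9.07 to 11.002, 11.13 and 10.76. Cd80 and Cd86, the ligands of CD28 and CTLA-4, rose 3.03-fold and 2.24-fold: Cd80 from 8.95, 8.78 and 9.15 to 10.64, 10.72 and 10.32, and Cd86 from 10.27, 10.20 and 10.27 to 11.45, 11.54 and 11.23. None of these groups overlapped, and the third LPS array was the lowest for each of Cd70, Tnfsf9, Cd40, Cd80 and Cd86. Cd274, the checkpoint ligand PD-L1, rose by 0.53 (SE 0.11). Havcr2, the inhibitory receptor TIM-3, fell 1.76-fold from 6.84, 6.55 and 6.26 to 5.62, 5.97 and 5.61.

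Of 23 maturation and migration genes, 3 rose (Ccl17, Ly75 and Marcksl1), none fell and 20 were not called, a share of 13.04% against the background of 9.72%. At an unadjusted p under 0.05, 4 were higher and none lower. The list's mean level was 9.66 to 9.92 on the unstimulated GM-DC arrays, 9.89 to 9.98 with LPS, and 6.99 to 7.35 on the unstimulated GM-MF arrays. Ccr7, the lymph node homing receptor, read 12.10, 12.01 and 12.06 before and 12.001, 11.97 and 12.03 after LPS. These groups overlapped, and the 95% interval of the difference ran from -0.62 to 0.51. Intervals and SEs in this paragraph use a spread shared by all 4 groups, GM-MF included. The GM-MF values of Ccr7, given below, lay farther apart than its GM-DC values, which widens its interval. Cd83, a surface marker of mature dendritic cells, read 10.83, 10.71 and 10.91 and 10.82, 10.83 and 10.80, with an interval of -0.46 to 0.45. Fscn1, the actin bundler of dendrites, read 11.72, 11.64 and 12.03 and 12.19, 12.24 and 12.09; the LPS values were all higher, but with an SE of 0.32 it was not called (adjusted p = 0.629). Ly75, the uptake receptor DEC-205, rose by 0.48 (SE 0.13) and Marcksl1 by 0.38 (SE 0.10). Ly75 lost its call without GM-DC unstimulated array 1 or 2 or GM-DC LPS array 1 or 2 (adjusted p 0.0835 to 0.118), and Marcksl1 without GM-DC unstimulated array 1 or 3 or GM-DC LPS array 1 or 2 (adjusted p 0.0745 to 0.144).

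None of 12 genes of MHC class II presentation was called by limma, against a background of 9.72%, so few calls would be met in a list of this size. None had an unadjusted p under 0.05, against 3884 of 19938 genes. H2-Ab1 read 11.81, 11.80 and 11.80 before and 11.83, 11.86 and 11.81 after LPS, with a 95% interval of the difference from -0.15 to 0.21. H2-Aa, H2-Eb1 and the invariant chain Cd74 differed by 0.02, 0.00 and -0.01. Ciita, the master activator of class II genes, read 7.89, 7.62 and 7.67 and 7.57, 7.42 and 7.43; all 3 LPS values were lower, but the difference of -0.26 (SE 0.17) was not called. Of 14 genes of class I presentation, 3 rose: Tap1, a subunit of the peptide transporter, by 0.77 (SE 0.10), Nlrc5, the activator of class I genes, by 0.44 (SE 0.13), and the immunoproteasome subunit Psmb10 by 0.34 (SE 0.10). The last was called without the replicate block (adjusted p = 0.0402) and not with it (0.0618). It lost its call without GM-DC unstimulated array 1 or 2 or GM-DC LPS array 1 or 2 or GM-MF unstimulated array 3 or GM-MF LPS array 1 or 3 (adjusted p 0.0509 to 0.175), and Nlrc5 did so without GM-DC unstimulated array 1, 2 or 3 or GM-DC LPS array 2 or 3 or GM-MF unstimulated array 3 or GM-MF LPS array 1, 2 or 3 (adjusted p 0.0533 to 0.214). This count fell to 1 without the first or second unstimulated, the second GM-DC LPS, the first GM-MF LPS or the third GM-MF LPS array.

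**Figure D3:**
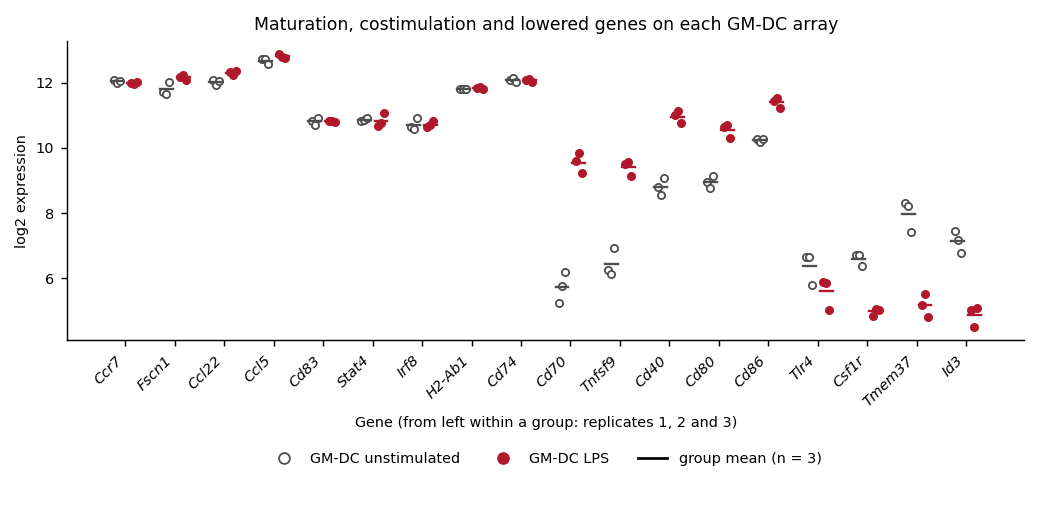
Log2 expression (y axis) of 18 genes on each GM-DC array, unstimulated as open and LPS as red circles, replicates 1, 2 and 3 from left to right, with lines at the group means. Ccr7 to Cd74 show little separation of the groups, Cd70 to Cd86 rise by 1.16 to 3.81 on the log2 scale, and Csf1r, Tmem37 and Id3 fall; Tlr4 overlaps.

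Among 23 uptake and lectin receptors, 5 rose and 1 fell. Clec4e, the receptor Mincle for mycobacterial glycolipids and dead cells, rose 10.4-fold from 4.33, 5.29 and 5.81 to 8.61, 8.75 and 8.21, with the unstimulated arrays widely spread and all below the LPS arrays. Olr1, the scavenger receptor LOX-1, rose 5.56-fold from 7.08, 6.99 and 5.99 to 9.30, 9.55 and 8.64. Mertk, a receptor for apoptotic cells, rose 2-fold, and Clec4n, which encodes Dectin-2, fell by 0.53 (SE 0.13), a call lost without GM-DC unstimulated array 2 or GM-DC LPS array 3 (adjusted p 0.0547 to 0.0767). With the replicate block, 5 members of this list were lower rather than 1. Of 16 chemokine and migration receptors, S1pr3 rose 2.92-fold from 5.06, 5.16 and 4.81 to 6.64, 6.89 and 6.14 and Cxcr4, the receptor for CXCL12, fell 2.09-fold from 11.05, 11.07 and 11.17 to 9.97, 9.83 and 10.31 (log2 difference -1.06, SE 0.12, adjusted p = 2.5e-05). The other 14 were not called, so that 12.5% of these receptors were called against the background of 9.72%.

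Of 21 cytoskeleton and adhesion genes, 6 rose. Pvr, which encodes CD155, a ligand of DNAM-1 and TIGIT, rose 6.66-fold from 7.99, 7.80 and 8.43 to 10.91, 11.08 and 10.45 (log2 difference 2.74, SE 0.17, adjusted p = 4.9e-08). Rhob, a small GTPase of endosomes, rose 4.94-fold from 3.91, 4.18 and 4.63 to 6.84, 6.80 and 5.99, and the integrin chains Itgal and Itga5 rose 2.17-fold and 2.09-fold. Itgax, the integrin chain CD11c, read 9.02, 8.98 and 8.05 and 9.02, 9.16 and 8.06, nearly the same array by array, with the third array about 1 log2 unit lower in both groups.

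Metabolic lists held a few large changes and a majority of members not called. Ptgs2, the inducible cyclooxygenase COX-2, rose 9.34-fold: it read 5.40, 5.48 and 6.87 unstimulated and 8.89, 9.15 and 9.38 with LPS. The third unstimulated array was again the highest of its group and below every LPS array (log2 difference 3.22, SE 0.31, adjusted p = 5.7e-06). Gch1, the first enzyme of tetrahydrobiopterin synthesis, a cofactor of nitric oxide synthase, rose 7.27-fold from 6.42, 6.23 and 6.13 to 9.20, 9.37 and 8.80. Nos2, the inducible nitric oxide synthase, read 4.13, 4.26 and 4.47 and 5.02, 5.84 and 5.35; the groups did not overlap, but with an SE of 0.44 the adjusted p was 0.153, against 0.0078 when only the 6 GM-DC arrays were fitted; it was also called without GM-MF unstimulated array 2 (adjusted p = 7.1e-04). Catalase (Cat) and the cystine transporter Slc7a11 fell by 0.67 and 0.65. Acod1, which makes itaconate from a citric acid cycle intermediate, rose 4.45-fold from 5.32, 5.79 and 6.33 to 7.62, 7.98 and 8.30, while the cycle-related dehydrogenases Idh1 and Mdh1 fell by 0.46 and 0.34. In that list 16 of the 19 genes were not called, so that 15.8% were called against the background of 9.72%. Idh1 lost its call without GM-DC unstimulated array 1 or 2 or GM-DC LPS array 2 or 3 (adjusted p 0.0508 to 0.0957), and Mdh1 without GM-DC unstimulated array 1 or 2 or GM-DC LPS array 1, 2 or 3 (adjusted p 0.0501 to 0.125).

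Of 19 genes of glycolysis and hypoxia response, 2 rose and 1 fell, a share of 15.8% called against the background of 9.72%. Hk2, the inducible hexokinase, rose 2.4-fold from 4.42, 4.32 and 4.16 to 5.73, 5.91 and 5.06. Egln3, a prolyl hydroxylase that senses oxygen, rose 3.65-fold with an adjusted p of 0.0411 in the limma fit of 4 groups. That call was lost without GM-DC unstimulated array 1, 2 or 3 or GM-DC LPS array 1 or 2 or GM-MF LPS array 1, 2 or 3 (adjusted p 0.0555 to 0.168). With only the 6 GM-DC arrays fitted, the adjusted p of Egln3 was 0.0027. GM-MF unstimulated array 2, which enters the shared spread, read 9.50 for Egln3, against 6.99 and 6.46 on the other arrays of its group. It was also the highest of its group for Hk2 and Slc16a3. Slc16a3, the lactate exporter MCT4, fell 2.86-fold from 8.44, 8.27 and 8.16 to 6.62, 6.90 and 6.78 (log2 difference -1.52, SE 0.25, adjusted p = 0.00106, or 9.5e-05 with only the 6 GM-DC arrays fitted). In cholesterol metabolism 1 of 21 genes rose and 4 fell, a share of 23.8% called. Abca1, the cholesterol efflux transporter, fell 2.33-fold from 6.70, 7.11 and 6.40 to 5.42, 5.73 and 5.40, and Dhcr7, an enzyme of the last steps of synthesis, fell by 0.82; Idi1, an isoprenoid enzyme, rose by 0.48 (SE 0.12), a call lost without GM-DC unstimulated array 1 or 2 or GM-DC LPS array 1 or 3 (adjusted p 0.0527 to 0.0854).

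Of 19 survival and death genes, 8 rose and 1 fell. Bcl2l1, which encodes the anti-apoptotic BCL-XL, rose 4.99-fold from 7.16, 6.69 and 7.47 to 9.61, 9.56 and 9.10. Casp4, the caspase that detects LPS in the cytosol, rose 3.91-fold from 7.92, 7.74 and 7.58 to 9.76, 9.99 and 9.39. Pmaip1, the pro-apoptotic NOXA, fell by 0.62 (SE 0.16, adjusted p = 0.0211), a call lost without GM-DC unstimulated array 3 or GM-DC LPS array 2 (adjusted p 0.0883 to 0.102). Nlrp3 and Aim2, inflammasome sensors named after their values were seen, rose by 1.62 (SE 0.18) and 0.95 (SE 0.18).

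Of 28 cell cycle genes, 5 rose, 1 fell and 22 were not called, a share of 21.4% called against the background of 9.72%. Mki67, a marker of proliferating cells, rose 3.68-fold from 4.50, 4.21 and 4.34 to 6.31, 6.50 and 5.87, and Ccnd2, a D-type cyclin, 3.37-fold from 9.72, 9.61 and 9.99 to 11.52, 11.67 and 11.39. Top2a, Ccna2 and Plk1, other genes of dividing cells, had differences of -0.27, -0.03 and -0.30 and were not called. Mcm6, a helicase subunit of DNA replication, fell 1.82-fold, whereas Mcm3 of the same complex rose by 0.80 (SE 0.16).

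Of 26 transcription factors of dendritic cells and macrophages, 5 rose and 3 fell. Tcf4, the factor E2-2, rose 2.37-fold from 8.40, 8.37 and 8.34 to 9.68, 9.85 and 9.32. Batf, which partners with IRF4 and IRF8, rose 2.34-fold, and Irf4, a factor of CD11b-type dendritic cells, rose 1.88-fold from 8.96, 8.85 and 8.63 to 10.002, 9.91 and 9.27. Irf4 was not called without GM-DC unstimulated array 3 or GM-DC LPS array 1 or 2 (adjusted p 0.0503 to 0.0671). Spi1, which encodes the myeloid factor PU.1, fell 1.77-fold from 9.64, 9.53 and 9.39 to 8.82, 8.58 and 8.66, and Cebpb fell 1.74-fold. Zbtb46, a factor of classical dendritic cells, was not called (difference 0.36, SE 0.12) but was without GM-DC unstimulated array 3 (adjusted p = 0.0351). Batf3, needed for cross-presenting dendritic cells, had a difference of -0.45 with an adjusted p of 0.0534, or 0.0198 with the replicate block; it was called without GM-DC LPS array 3 or GM-MF LPS array 2 or 3 (adjusted p 0.01 to 0.0494). With that block 6 members of the list were lower rather than 3. The count of risen members was 3 without the first or second LPS array, and 5 were lower without the third LPS array.

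Stress genes fell more often than they rose: of 19, 7 fell and 3 rose, with a median difference of -0.29. Gadd45a, induced by DNA damage, fell 2-fold from 8.36, 8.25 and 8.08 to 7.35, 7.11 and 7.25, and the chaperone Hsph1 by 0.73. Sod2, the mitochondrial superoxide dismutase and an NF-kB target, rose 2.5-fold from 8.17, 8.45 and 8.32 to 9.78, 9.78 and 9.34, and the heat shock gene Hspa1a 2.29-fold from 6.45, 6.65 and 6.96 to 7.96, 7.84 and 7.85. Of 17 lysosomal genes, 3 fell and none rose, with 2 higher and 5 lower at an unadjusted p under 0.05. The share called was 17.6%, against the background of 9.72%. Atp6v0d2, a subunit of the vacuolar proton pump, fell 3.81-fold from 8.79, 9.001 and 8.21 to 6.88, 6.98 and 6.34 (log2 difference -1.93, SE 0.19, adjusted p = 7.2e-06). Npc1, which exports cholesterol from lysosomes, fell by 0.55 and Hexa by 0.41. Hexa was not called without GM-DC unstimulated array 1 or 2 or GM-DC LPS array 1 or 3 or GM-MF unstimulated array 1, 2 or 3 or GM-MF LPS array 1, 2 or 3 (adjusted p 0.0524 to 0.219).

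**Figure D4:**
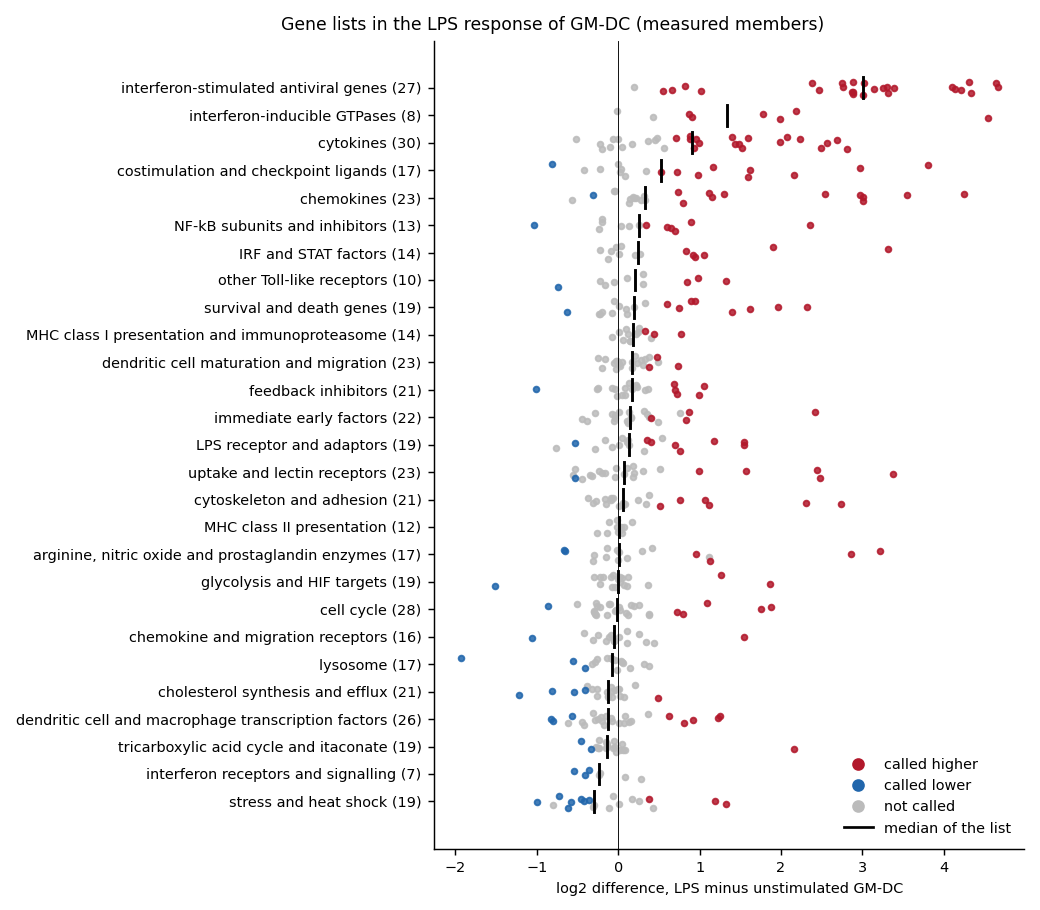
Each point is a measured member of one of 27 functional gene lists (y axis, with the number of members), placed at its log2 difference, LPS minus unstimulated GM-DC (x axis); red points were called higher, blue points lower, grey points were not called, and black ticks are medians. The antiviral list has the median farthest from 0, at 3.01, and the MHC class II list lies around 0 with a median of 0.01.

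The genes that fell furthest were Tmem37 and Id3, the only ones called at least 4-fold lower with all arrays in the fit; without the third unstimulated array there were 6 such genes, without the first or second LPS array 4, and without the third LPS array 3. Tmem37, a membrane protein, read 8.30, 8.23 and 7.43 unstimulated and 5.17, 5.53 and 4.80 with LPS. All LPS values were lower, by 7.05-fold on average (log2 difference -2.82, SE 0.21, adjusted p = 5.2e-07). Id3, an inhibitor of E-protein transcription factors such as E2-2, fell 4.79-fold from 7.44, 7.17 and 6.78 to 5.01, 4.51 and 5.09 (log2 difference -2.26, SE 0.18, adjusted p = 1.1e-06). Csf1r, the receptor of M-CSF that macrophages depend on, fell 3.08-fold from 6.70, 6.72 and 6.39 to 4.84, 5.07 and 5.04, again with no overlap.

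Next in size among genes that fell was the proton pump subunit Atp6v0d2, 3.81-fold. After it, gene models without a gene name aside, came Pld4, an endosomal nuclease, 3.76-fold, Tmem51 3.72-fold, Cldn1, a tight junction protein, 3.68-fold, and Lpar6, a receptor of lysophosphatidic acid, 3.38-fold. Ephx1, a detoxifying hydrolase, fell 3.28-fold, Sh2d1b1, the signalling adaptor EAT-2, 3.18-fold, Zfp385a 3.04-fold and Nceh1, a cholesterol ester hydrolase, 3.03-fold. Pld4 had the widest spread, from 8.36, 8.25 and 7.05 unstimulated to 6.39, 6.41 and 5.13 with LPS, with the third array low in both groups. At the upper end, Layn, a hyaluronan receptor outside the lists, rose 11.7-fold from 4.22, 3.67 and 4.59 to 8.01, 7.95 and 7.18.

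The labelled cell type was set against its markers. Over 13 dendritic cell core genes the mean level was 8.29 to 8.39 on the unstimulated GM-DC arrays and 8.14 to 8.23 with LPS, against 6.30 to 6.38 in unstimulated GM-MF. Over 12 macrophage core genes it was 5.87 to 6.08 and 5.94 to 6.16 in GM-DC, against 9.74 to 10.1 in unstimulated GM-MF, so the arrays differed as their labels say. Among the dendritic cell markers, Btla rose and Kit and Adam19 fell; among the macrophage markers, Adgre1 (F4/80), Mertk, Cd14 and Tlr7 rose and Csf1r fell. Adgre1 read 5.89, 5.76 and 5.69 and 7.23, 7.08 and 6.75 in GM-DC. In bulk RNA a change in the share of a cell type and a change in RNA per cell cannot be told apart, and the part of these markers in the response was not tested.

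Few markers of other cells were called, but their lists are short and the background over all genes was 9.72%. At that share a list of 10 or fewer genes can easily hold no call. Many members were also weak: 6 of 10 mast cell and basophil, 6 of 8 T and NK and 5 of 8 stromal markers lay below the table median on all 6 GM-DC arrays. No member was called by limma among 4 monocyte markers, 10 of mast cells and basophils, 8 of T and NK cells, 8 of stroma and 3 of erythroid cells; at an unadjusted p under 0.05 the counts were 0, 0, 0, 1 and 0. Of 14 neutrophil markers, Ly6g rose by 0.42 (SE 0.11) from below the table median and Mmp8 fell by 1.16 (SE 0.31) with overlapping groups. Ly6g lost its call without GM-DC unstimulated array 2 or 3 or GM-DC LPS array 1 or 3 (adjusted p 0.0696 to 0.128), and Mmp8 without GM-DC unstimulated array 2 or 3 or GM-DC LPS array 1 or 2 (adjusted p 0.0694 to 0.132). Of 7 B cell markers, Blnk, an adaptor also found in myeloid cells, rose 2.54-fold from 8.48, 8.56 and 7.30 to 9.68, 9.84 and 8.85. Of 7 markers of type 2 conventional dendritic cells, Irf4 (given above) and Sirpa, by 0.64 (SE 0.10), rose. Of 10 markers of the cross-presenting type 1, only Tlr3 was called, as higher. The mean level of these 10 was 6.28 to 6.40 on the unstimulated GM-DC arrays and 6.30 to 6.55 with LPS. Xcr1 and Clec9a, which define that type, stayed below the table median on average in both groups (3.36 and 2.87 unstimulated), but 3 of the 10 had unstimulated means above 9.

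The response of GM-DC was then set against that of GM-MF, with a test of the difference between the 2 responses. It was called for 1514 genes, 7.59% of those tested; 904 had the more positive difference in GM-DC and 610 the more negative. Of the 329 genes that rose at least 2-fold in GM-DC, 203 rose by more than in GM-MF by this test and 17 by less. Of the 86 that fell at least 2-fold, 39 were called, 33 of them more negative in GM-DC. Both sets were chosen for a large GM-DC difference, which is itself a part of this test. An excess of calls in the GM-DC direction is therefore built into these counts. Called in both cell types were 439 genes that rose and 468 that fell, while 69 rose in GM-DC and fell in GM-MF and 34 did the reverse.

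Interferon-response genes rose by more in GM-DC: of the 27 antiviral genes, the difference was called as larger in GM-DC for 22 and as smaller for 1, and the median response was 3.01 for GM-DC and 0.58 for GM-MF. The level in GM-MF was already high. The list's mean was 9.99 to 10.1 on the unstimulated GM-MF arrays, above the 8.40 to 8.88 of GM-DC with LPS, and 10.8 with LPS. Ifit1 read 11.06, 11.07 and 11.04 in unstimulated and 11.79, 11.69 and 11.77 in LPS-treated GM-MF. The GM-MF values thus started above those that GM-DC reached, and the responses differed by 3.97 (SE 0.21, adjusted p = 1.5e-07). Slfn1, Ifi207, Xaf1, Samd9l, Rtp4 and Ifit2 differed in the same direction, by 3.72 to 4.10. Lrrc32, which encodes the TGF-beta carrier GARP, rose by 1.67 in GM-DC and fell by 2.09 in GM-MF. Tnf, Il23a, Cxcl10 and Acod1 also rose by more in GM-DC, by 1.61 to 2.24. Tnf and Acod1 read 10.83 and 12.44 on average in unstimulated GM-MF, above the 8.59 and 7.97 of GM-DC with LPS. Il23a read 4.64 in unstimulated GM-MF and 4.56 in unstimulated GM-DC, and 5.72 and 7.25 with LPS. The part of these starting levels in the responses was not tested.

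The opposite held for Il6, Il10, Il12a and Il12b. Il6 rose by 1.98 (SE 0.29) in GM-DC and by 6.21 (SE 0.29) in GM-MF, where it read 5.57, 6.88 and 5.57 without and 12.28, 12.02 and 12.36 with LPS. The GM-MF arrays thus started below and ended above those of GM-DC, and the responses differed by -4.23 (SE 0.41, adjusted p = 1.3e-05). Il12b, Il12a and Il10 differed by -2.78, -2.81 and -3.06. Il12a, not called in GM-DC, went from 4.35, 5.33 and 4.64 to 7.92, 7.90 and 8.04 in GM-MF. Ifnb1 rose by 2.95 (SE 0.22) in GM-MF, a difference of -2.02 (SE 0.32) between the responses, and Nos2 differed by -3.63. Hamp, the hepcidin gene, Il19, Il1f6, Hdc, which makes histamine, Penk and Zfp558 also had the smaller response in GM-DC.

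Several maturation genes responded by less in GM-DC than in GM-MF. Of the 23 genes of that list, 9 had a smaller response in GM-DC by the test of the difference and none a larger one, with medians of 0.17 and 0.72. Ccr7 read 6.86, 7.62 and 6.49 in unstimulated and 9.39, 10.06 and 8.91 in LPS-treated GM-MF, all far below GM-DC, and the responses differed by -2.52 (SE 0.37, adjusted p = 5.1e-04). Cd83, Ccl22, Ccl5 and Irf8 differed by -1.06, -1.29, -1.27 and -1.61. Ccr7, Ccl22 and Ccl5 already read 12.05, 12.03 and 12.67 on average in unstimulated GM-DC, against a highest value of 13.7 in the whole table. Ccl5 reached 12.82 with LPS in GM-DC and 12.93 in GM-MF. The part of these high starting levels in the smaller responses was not tested. For Cd40 and Cd86 the responses differed by 0.03 and 0.07, which was not called, whereas Cd80 rose by less in GM-DC (-1.39, adjusted p = 4.1e-04).

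**Figure D5:**
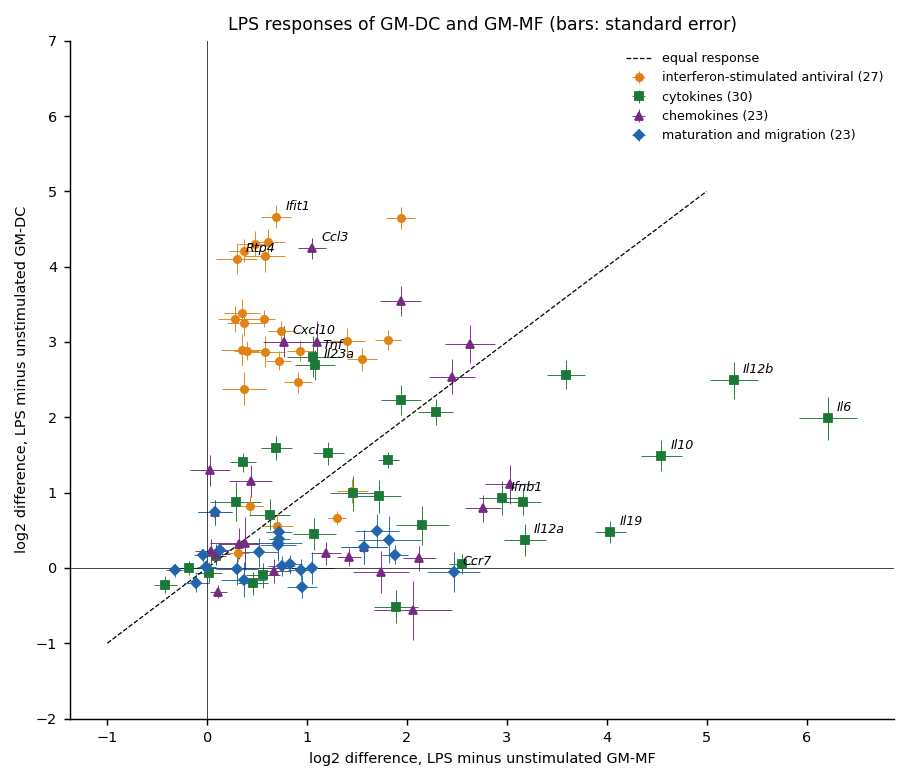
Log2 difference, LPS minus unstimulated, in GM-MF (x axis) and GM-DC (y axis) for the measured members of 4 gene lists, with standard errors as bars; the dashed line marks equal responses. Most antiviral genes lie above the line, with Ifit1 at 0.69 and 4.66, and Il6, at 6.21 and 1.98, lies below it.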

How the data were processed

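Expression was measured on 12 Affymetrix Mouse Gene 1.0 arrays, 3 in each of 4 groups named from the titles. The deposited table holds log2 values on 35556 probe sets; RMA and R 3.0.2 are named in the submitters' processing notes, and the log base was inferred from the range of 1.18 to 13.7. RMA subtracts background, makes the arrays' distributions equal and summarises probes, so a shift of all genes alike cannot be seen, and no background call is given. The number of arrays limits the precision.

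Probe sets were named from the platform annotation: 21789 had 1 symbol, 1621 several and 12146 none, and only the first were used. The probe set with the highest mean stood for each of 999 genes with several, leaving 19938 genes. limma 3.58.1 in R 4.3.3 fitted the 4 group means (8 residual degrees of freedom, eBayes, Benjamini-Hochberg over all genes, threshold 0.05), and was tested on simulated data. SE and adjusted p come from this fit, SD from the 3 arrays, and a fold is 2 to the power of the log2 difference. The labels do not say that arrays came from separate mice, so p-values measure the spread between these arrays.

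Replicate numbers are in the titles. Deviations from the group means correlated at 0.119, 0.136 and 0.363 between GM-DC arrays of the same number, and at -0.25 to 0.16 between different numbers. Unstimulated array 1 correlated at 0.119 with LPS array 1 and 0.120 with LPS array 2. Unstimulated array 2 correlated at 0.164 with LPS array 1 and 0.136 with LPS array 2. Only for array 3 did the same number stand out, so these values do not show that arrays 1 and 2 are pairs. The numbers were treated as pairs only in an alternative fit.

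The study's arrays and the 39 gene lists (564 measured genes) were chosen with earlier results of these data known. Genes named by rule were the 20 called genes that rose and the 12 that fell most with no overlap between groups, up to 4 called members per list (up to 2 per direction where both occurred, or the 2 of highest mean in a list without calls), 45 measured genes of a fixed list of 47, and the 8 with the largest difference of responses in each direction; clone and model names were left out. Other list members named in the text were chosen after their values were seen. Alternatives were the replicate block, the 6 GM-DC arrays alone, a variance trend, cyclic loess, median centring, 2 filters on low values, averaged probe sets and leaving out each array. Promoter windows came from RefSeq (GRCm38.p6) and covered 15614 genes.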

Additional observations from a re-analysis of the deposited data

Results flagged for a closer look

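The responses to LPS differed between GM-DC and GM-MF for 1514 genes by the test of the difference itself (limma, adjusted p under 0.05). The values below are GM-DC minus GM-MF responses on the log2 scale for genes of the fixed list, and for the 8 genes with the largest difference in each direction, whose responses differed by at least 2-fold in that test; further named genes past that size are not repeated here. They were selected for this difference, so their sizes are descriptions.

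More positive in GM-DC were the interferon-response genes Ifit1 (3.97), Slfn1 (4.10), Ifit2 (3.72), Ifi207 (3.94), Samd9l (3.83), Xaf1 (3.84), Rtp4 (3.81) and Irf7 (2.51). Xaf1, Samd9l and Rtp4 read 9.72, 10.68 and 10.79 on average in unstimulated GM-MF and 4.99, 3.82 and 3.38 in unstimulated GM-DC. Irf7 read 10.10 and 4.65. Lrrc32 (3.76), Cxcl10 (2.24), Acod1 (1.92), Tnf (1.74), Il23a (1.61) and Mki67 (1.20) were also more positive in GM-DC. Acod1, Tnf and Mki67 read 12.44, 10.83 and 6.56 on average in unstimulated GM-MF and 5.81, 5.79 and 4.35 in unstimulated GM-DC. Il23a read 4.64 and 4.56.

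More negative in GM-DC were the cytokines Il6 (-4.23), Il1f6 (-3.71), Il19 (-3.56), Il10 (-3.06), Il12a (-2.81), Il12b (-2.78), Il27 (-2.28) and Ifnb1 (-2.02). Hamp (-4.05), Nos2 (-3.63), Penk (-3.27), Hdc (-3.11) and Zfp558 (-3.10) followed the same direction. Of these, Hamp was called higher in GM-DC as well, whereas Nos2, Penk, Hdc and Zfp558 were not called there. Maturation and regulatory genes in this direction were Ccr7 (-2.52), Socs3 (-1.88), Irf8 (-1.61), Socs1 (-1.56), Cd80 (-1.39), Ccl22 (-1.29), Ccl5 (-1.27) and Cd83 (-1.06).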

How the results depend on the processing

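The counts of all called, higher and lower genes, and of those past 2-fold, in GM-DC stayed within 1.5 times under every alternative fit, except the count of lower genes when arrays were left out, which ran from 521 to 941 against 896. The 2 genes at least 4-fold lower became up to 6 when arrays were left out. It was 521 without GM-DC unstimulated array 1, 551 without unstimulated array 2 and 592 without GM-DC LPS array 1. All called genes ranged from 1331 to 2009 when one array was left out, and were 1560 with the 6 GM-DC arrays alone, 2071 with a variance trend, 1966 after cyclic loess, 1789 after median centring, 2209 and 2197 after the 2 filters on low values and 1927 with averaged probe sets. With the replicate block 2355 genes were called, 1184 higher and 1171 lower; among the named genes the pairing ended the call of Psmb10 and added Tlr4 and Batf3, and it changed no other call of a named gene. The same block moved the lower counts of some lists by more than 1.5 times: 6 of 26 transcription factors, 5 of 23 uptake receptors, and 2 each of the LPS receptor, costimulation, cell cycle, cDC1 and macrophage lists. With the 6 GM-DC arrays alone, 15 named genes lost their call, Cxcl16, Ifnar1, Nlrc5, Mdh1 and Hexa among them, and Nos2 gained one. Leaving out 1 array at a time ended the call of the 21 genes named with it above and gave one, in at least 1 such fit, to Tlr4, Nos2, Zbtb46, Batf3 and Il19. Il19 was called without GM-MF LPS array 2 or 3 (adjusted p 0.0218 to 0.0459). No named gene changed direction while called. With 3 arrays per group, small differences of low signals could not be resolved.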
